A study of Mus musculus with 6 samples.

Results

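The genes described here are 10 genes that encode enzymes of glycolysis and of lactate formation, Gpi1, Aldoa, Tpi1, Gapdh, Pgk1, Pgam1, Eno1, Eno2, Ldha and Ldhb. They were taken by symbol from a table of 24972 genes measured by RNA-seq in the mouse cortex, and all 10 were present and passed the filter on low values. Total RNA came from cortices at postnatal day 7 (P7), in 3 libraries labelled wildtype and 3 labelled Zmiz1-KO. Wildtype mice were Zmiz1f/f, and Zmiz1-KO mice were Zmiz1f/f;Emx1Cre, so both groups carried floxed Zmiz1 alleles and the knockout group also carried Cre. Cre expressed from Emx1 acts in progenitors of cortical excitatory neurons and of cortical glia, so the vessels, microglia and meninges in a dissected cortex, and the interneurons that migrate into it, are not its targets. One label also speaks of isolating progenitor cells, whereas the tissue and RNA labels name the cortex. The sources do not say if a library is 1 animal, so p-values measure the spread between these libraries.

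Glycolysis splits glucose into pyruvate in the cytosol and yields ATP and NADH on the way. Gpi1 isomerizes glucose 6-phosphate, Aldoa cleaves fructose 1,6-bisphosphate, and Tpi1 interconverts the pair of triose phosphates that result. Gapdh makes NADH, Pgk1 makes ATP, Pgam1 moves the phosphate group, and the enolases Eno1 and Eno2 make phosphoenolpyruvate. Ldha and Ldhb encode the subunits of lactate dehydrogenase, which converts pyruvate to lactate and back. In the brain, Eno2 is the enolase of mature neurons, Aldoc and Ldhb are known from astrocytes and neurons respectively, and Gapdh is widely used as a reference gene in qPCR because its level is assumed to be steady.

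The 10 genes lie on 5 chromosomes, of which chromosome 6 holds 4 and chromosome 7 holds 3 (GRCm38, GENCODE M21). On the minus strand of chromosome 6 lie Eno2 (chr6:124760053-124769673), Tpi1 (chr6:124810586-124814296) and Gapdh (chr6:125161715-125166467), within 406 kb, and farther away Ldhb (chr6:142490249-142507957). Gpi1 (chr7:34201330-34230336), Ldha (chr7:46841475-46855627) and Aldoa (chr7:126795234-126800751) lie on chromosome 7. The others are Eno1 (chr4:150236721-150248879), Pgam1 (chr19:41911923-41918660) and the X-linked Pgk1 (chrX:106187100-106203699).

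Several of these enzymes are known targets of the hypoxia-inducible factor HIF-1. A form of the core of its sites is ACGTG, the only form searched for here, and the sequence CACGTG is the E-box. The 150 bases before the transcription start (RefSeq, GRCm38.p6) are shown for Gapdh and Eno2, the members with the smallest p-values in either direction, and for Ldha and Pgk1, which hold most matches to the core. Capitals mark ACGTG, or CACGT where the core is on the other strand, and CACGTG counts once on each strand. The positions are chr6:125165774-125165923 (minus strand) for Gapdh, chr6:124769674-124769823 (minus strand) for Eno2, chr7:46845654-46845803 (plus strand) for Ldha and chrX:106186950-106187099 (plus strand) for Pgk1. The windows of Gapdh and Ldha lie inside the annotated spans of these genes, and those of Eno2 and Pgk1 lie just outside.
Gapdh: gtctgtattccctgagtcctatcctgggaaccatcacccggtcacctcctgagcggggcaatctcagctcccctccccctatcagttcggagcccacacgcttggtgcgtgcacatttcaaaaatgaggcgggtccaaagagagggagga
Eno2: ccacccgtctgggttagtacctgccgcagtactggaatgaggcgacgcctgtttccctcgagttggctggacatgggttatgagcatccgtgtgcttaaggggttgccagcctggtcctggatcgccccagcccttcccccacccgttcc
Ldha: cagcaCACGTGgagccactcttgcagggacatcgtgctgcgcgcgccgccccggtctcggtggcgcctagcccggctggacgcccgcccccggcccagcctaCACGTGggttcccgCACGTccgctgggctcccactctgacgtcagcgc
Pgk1: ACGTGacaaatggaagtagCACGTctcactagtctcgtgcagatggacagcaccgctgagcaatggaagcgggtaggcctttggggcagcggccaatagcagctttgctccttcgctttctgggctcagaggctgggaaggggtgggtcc
Within 250 bases before the start nearest to the annotated one, Ldha held 5 matches, Pgk1 held 2 and Pgam1 held 1, so 3 of the 10 genes had any. Over all 32851 RefSeq promoters, 16.6% held at least 1 match and 6.81% held 2 or more. Aldoa had matches only before other starts, and Gapdh, Eno2, Gpi1, Eno1, Tpi1 and Ldhb had no match to ACGTG on either strand in the windows searched. Since other forms of the core were not searched for, these counts do not show which promoters lack a HIF-1 site.

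The deposited values are read counts per gene normalized by the authors with DESeq2, and are called normalized counts here. Their sums were 32661979 to 33239707 per library, and about 15494888 to 17858395 counted reads per library were estimated from the smallest steps between values. Zmiz1 itself had 8119, 7929 and 7461 normalized counts in wildtype and 9944, 9779 and 9660 under the Zmiz1-KO label (log2 fold change 0.32, adjusted p = 0.00125, limma). Gene-level values do not show which exons the reads cover, and reads from exons outside a floxed part still count, so this value does not check the labels, and the groups are called by their labels. Xist, which marks female animals, was at 25307 in wildtype replicate 3 and 24403 in Zmiz1-KO replicate 2 and at 12.9 to 57.3 in the other libraries. The tissue label fits the markers, since each of 10 neuron markers had at least 3165 normalized counts and each of 8 markers of cortical excitatory identity at least 473 in every library.

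The whole set of 10 genes took up 0.399% to 0.404% of the normalized counts in wildtype and 0.41% to 0.427% under the Zmiz1-KO label. Summed, they had 132594, 131328 and 133289 normalized counts in wildtype (mean 132404 ± 994 SD, n = 3) and 140817, 133778 and 137035 under the Zmiz1-KO label (137210 ± 3523, n = 3). The sums of the groups did not overlap and their means differed by 3.63%, with an exact two-sided permutation p of 0.1, the smallest that 3 against 3 can give. In whole cortex, fewer cells of a type and less RNA per cell cannot be told apart. None of the 10 genes passed the test across the table (limma on log2(value + 1), Benjamini-Hochberg adjusted p at or under 0.05), where 0.411% of 15800 genes passed. By limma-voom 57 of the 15800 genes passed, with 0 of the 10 among them. At an unadjusted p under 0.05 limma gave 4 of 10, Eno2, Gapdh, Aldoa and Ldhb, against 11.0% of all genes.

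**Figure D1:**
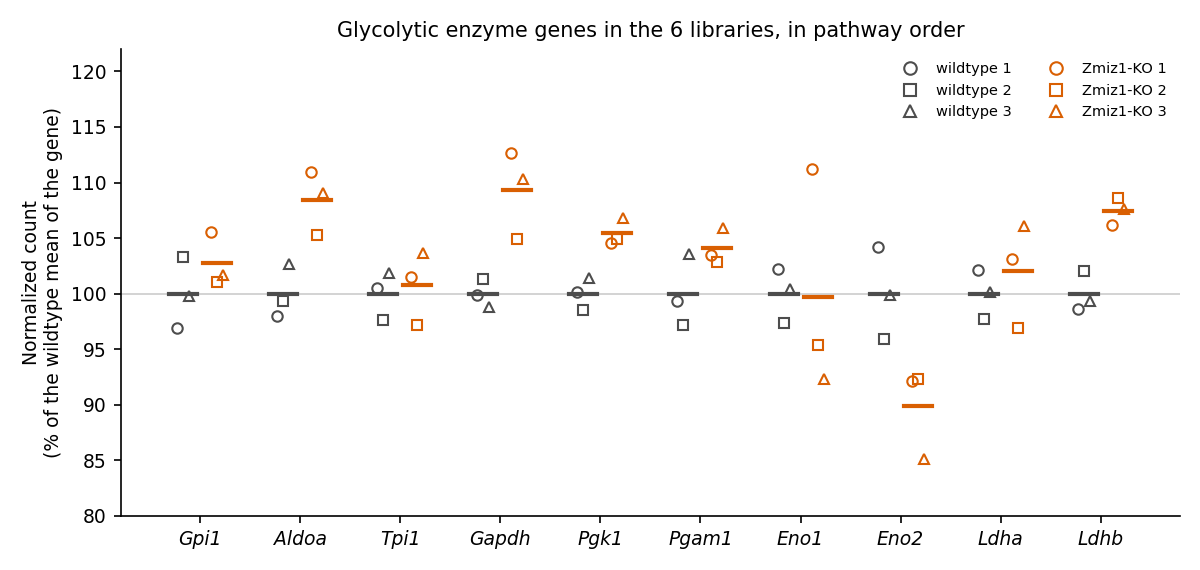
Normalized count of each glycolytic enzyme gene in each library, as a percentage of the gene's wildtype mean (vertical axis), with genes in pathway order along the horizontal axis. Grey symbols are wildtype and orange symbols KO-labelled libraries, with circles, squares and triangles for replicates 1, 2 and 3 and bars for group means. For Gapdh, Aldoa, Pgk1 and Ldhb all 3 orange symbols lie above the grey ones, for Eno2 all 3 lie below, and for the other 5 genes they overlap.

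For 4 of the 10 genes (Gapdh, Aldoa, Pgk1 and Ldhb) every library labelled Zmiz1-KO was above every wildtype library, which was so for 8.10% of all genes tested. For 1 of 10, Eno2, every library labelled Zmiz1-KO was below every wildtype library, which was so for 8.16% of all genes. The other 5 overlapped. The log2 fold change was positive for 8 of 10 genes, against 49.9% of all genes, with a median of 0.049 against -0.0002 over all genes. Once corrected for GC content and length, as described further on, 6 of 10 were positive and the median was 0.011. In size, the differences were small. The median absolute log2 fold change was 0.067 for the 10 genes, 0.075 for all genes and 0.040 for the 1541 genes with a mean of at least 5000 normalized counts, which include all 10.

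At the start of the pathway, Gpi1 ranged from 13083 to 13937 normalized counts in wildtype and from 13632 to 14240 under the Zmiz1-KO label. The groups overlapped, and the log2 fold change was 0.04 (95% interval -0.040 to 0.118, adjusted p = 0.773). Aldoa, the main aldolase of muscle and brain, had 17049, 17281 and 17869 normalized counts in wildtype and 19300, 18323 and 18981 under the Zmiz1-KO label. Its lowest KO-labelled library was above its highest wildtype library, and the mean was 8.44% higher (log2 fold change 0.12, SE 0.036, adjusted p = 0.218). The other brain aldolase, Aldoc, had a log2 fold change of -0.028 (adjusted p = 0.88), and the log2 ratio of Aldoa to Aldoc was 1.461 ± 0.093 in wildtype and 1.606 ± 0.032 under the Zmiz1-KO label. That ratio was higher in 3 of 3 KO-labelled libraries than in any wildtype library (difference 0.145, exact permutation p = 0.1). Tpi1 ranged from 9053 to 9453 in wildtype and from 9018 to 9620 under the Zmiz1-KO label, and had the smallest spread of the 10 genes (SD of log2 values 0.037 over 6 libraries).

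Gapdh had the most normalized counts of the 10 genes in every library. It had 26128, 26510 and 25829 normalized counts in wildtype (26156 ± 341) and 29462, 27438 and 28856 under the Zmiz1-KO label (28585 ± 1039). All 3 KO-labelled libraries were above all wildtype libraries, with Zmiz1-KO replicate 2 the closest to them, and the mean was 9.29% higher. The log2 fold change was 0.13 (SE 0.035, 95% interval 0.053 to 0.202), which did not pass the test (adjusted p = 0.168, limma). Without Zmiz1-KO replicate 2 it was 0.157 with an adjusted p of 0.0364 (limma), and the number of genes called across the table went from 65 to 152. That library was the only KO-labelled one with high Xist, while wildtype replicate 3, also with high Xist, stayed in. With all libraries and Xist as a covariate, Gapdh was at 0.122 (adjusted p = 0.178, limma). With any other single library left out the adjusted p of Gapdh was 0.169 to 0.568.

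Pgk1, which catalyses the first ATP-forming step, had 8453, 8317 and 8564 normalized counts in wildtype and 8830, 8863 and 9019 under the Zmiz1-KO label. The groups did not overlap, and the mean was 5.44% higher (log2 fold change 0.076, SE 0.036, adjusted p = 0.458). Pgk1 is X-linked. The wildtype library with high Xist, at 8564, was the highest of its group, and the KO-labelled one, at 8863, lay between the others of its group. Pgam1 ranged from 12389 to 13197 in wildtype and from 13112 to 13501 under the Zmiz1-KO label, where the groups overlapped by wildtype replicate 3 alone (log2 fold change 0.058, adjusted p = 0.606).

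Eno2 was the only one of the 10 genes with all KO-labelled libraries below wildtype. It had 11798, 10863 and 11310 normalized counts in wildtype (11324 ± 467) and 10430, 10449 and 9638 under the Zmiz1-KO label (10172 ± 463), 10.17% less in the mean. The log2 fold change was -0.155 (SE 0.043, 95% interval -0.246 to -0.064) and did not pass the test (adjusted p = 0.168, limma). Of 10 neuron markers, none passed the test (limma, and none by limma-voom), and 8 had negative log2 fold changes (median -0.037). The summed level of all 10 was 265121 to 287608 in wildtype and 264842 to 272821 under the Zmiz1-KO label. An unadjusted p under 0.05 (limma) was found for 2 of 10, against 11.0% of all genes. These 2 were Elavl4 and Rbfox3, which encode RNA-binding proteins of neurons. Their log2 fold changes were -0.147 and -0.093 (adjusted p = 0.275 and 0.387, limma). For these 2 of 10 all KO-labelled libraries were below wildtype, as for 8.16% of all genes. The part of neuron content in the level of Eno2 was not tested.

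Eno1, the enolase present in most cell types, had 14765, 14061 and 14500 normalized counts in wildtype and 16065, 13777 and 13337 under the Zmiz1-KO label. The KO-labelled libraries lay both above and below wildtype, and the log2 fold change was -0.009 (SE 0.063, adjusted p = 0.978). The log2 ratio of Eno1 to Eno2 within a library was 0.324, 0.372 and 0.358 in wildtype and 0.623, 0.399 and 0.469 under the Zmiz1-KO label. It was higher in 3 of 3 KO-labelled libraries, by 0.146 (exact permutation p = 0.1, and 0.3 adjusted over 3 such ratios), with Zmiz1-KO replicate 2 closest to wildtype.

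The spread of Eno1 went with that of Eno1b, a gene with a nearly identical sequence on another chromosome. Of the 75-base stretches of Eno1 transcripts, 22.6% also occur in Eno1b, and 69.6% of those of Eno1b occur in Eno1. Eno1b was at 3171, 2943 and 2946 normalized counts in wildtype, close together, and at 1494, 2843 and 4762 under the Zmiz1-KO label. The KO-labelled library with the most Eno1 had the least Eno1b, and the one with the least Eno1 had the most Eno1b. Summed, the copies had 17936, 17004 and 17446 normalized counts in wildtype and 17559, 16621 and 18099 under the Zmiz1-KO label, a coefficient of variation over 6 libraries of 3.2%, against 6.61% for Eno1 and 34.4% for Eno1b alone. The groups of the sum overlapped (log2 difference -0.003, exact permutation p = 1), and the ratio of this sum to Eno2 was again higher in 3 of 3 KO-labelled libraries (log2 difference 0.151, exact permutation p = 0.1). The sum was taken after the values of Eno1 and Eno1b had been seen, and how the authors' counting divided shared reads is not given in the sources used here.

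**Figure D2:**
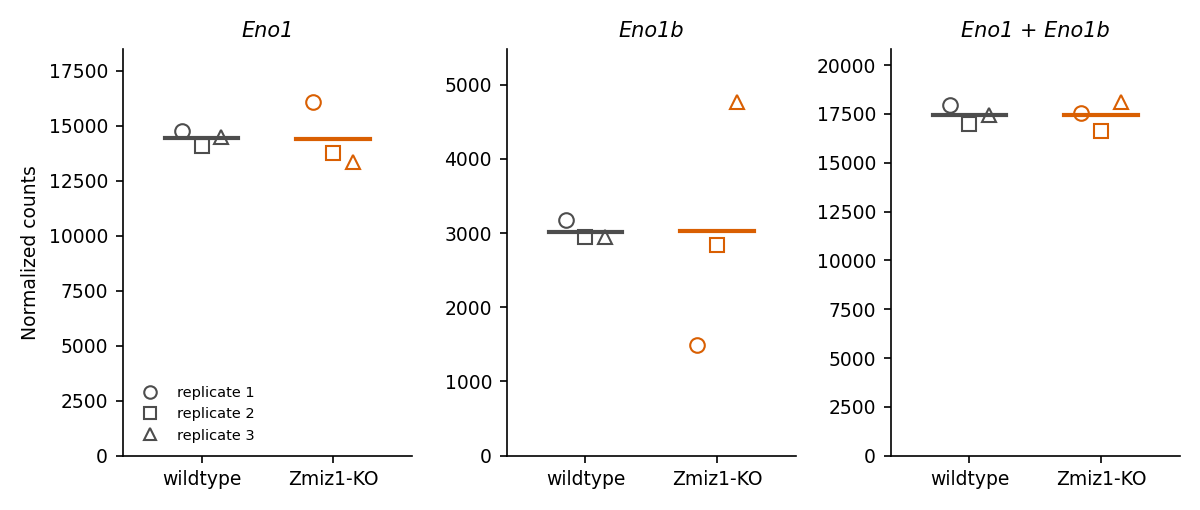
Normalized counts (vertical axes, from 0) of Eno1, of Eno1b and of their sum in the wildtype (grey) and Zmiz1-KO (orange) libraries, with circles, squares and triangles for replicates 1, 2 and 3 and bars for group means. In Zmiz1-KO, replicate 1 is highest for Eno1 and lowest for Eno1b and replicate 3 the reverse, and the sums lie between 16621 and 18099 in all 6 libraries.

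Other members also share sequence with copies elsewhere in the genome. The share of 75-base stretches found in another gene was 52.8% for Pgk1, 34.9% for Pgam1, 22.6% for Gapdh, 12.6% for Ldhb and 10.8% for Gpi1, and at most 2.69% for Ldha, Tpi1, Aldoa and Eno2. The closest copies of Pgk1, Pgam1, Gapdh, Ldhb and Gpi1 have no row in the table analysed. For Gapdh, whose stretches recur in 121 genes, that closest copy is Gm7336, which shares 22.5% of them. The copy Gm12070, which shares 17.8%, has a row, with 255, 251 and 225 normalized counts in wildtype and 208, 197 and 197 under the Zmiz1-KO label. Gm12070, singled out after its values were seen, was lower where Gapdh was higher (log2 fold change -0.278, adjusted p = 0.383), but its level is a small part of that of Gapdh. Values of Pgk1, Pgam1, Gapdh and Eno1 are therefore less certain, as far as shared reads go, than those of Eno2, Aldoa, Tpi1 and Ldha.

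At the end of the pathway, Ldhb had 5399, 5590 and 5442 normalized counts in wildtype and 5817, 5949 and 5892 under the Zmiz1-KO label. The groups did not overlap, and the mean was 7.47% higher (log2 fold change 0.10, SE 0.039, adjusted p = 0.311). Ldha ranged from 13327 to 13931 in wildtype and from 13216 to 14472 under the Zmiz1-KO label (log2 fold change 0.028, adjusted p = 0.862). The balance of the subunits, as the log2 ratio of Ldha to Ldhb, was 1.316 ± 0.058 in wildtype and 1.240 ± 0.078 under the Zmiz1-KO label, and the groups overlapped (exact permutation p = 0.3, also 0.3 adjusted over 3 ratios).

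**Figure D3:**
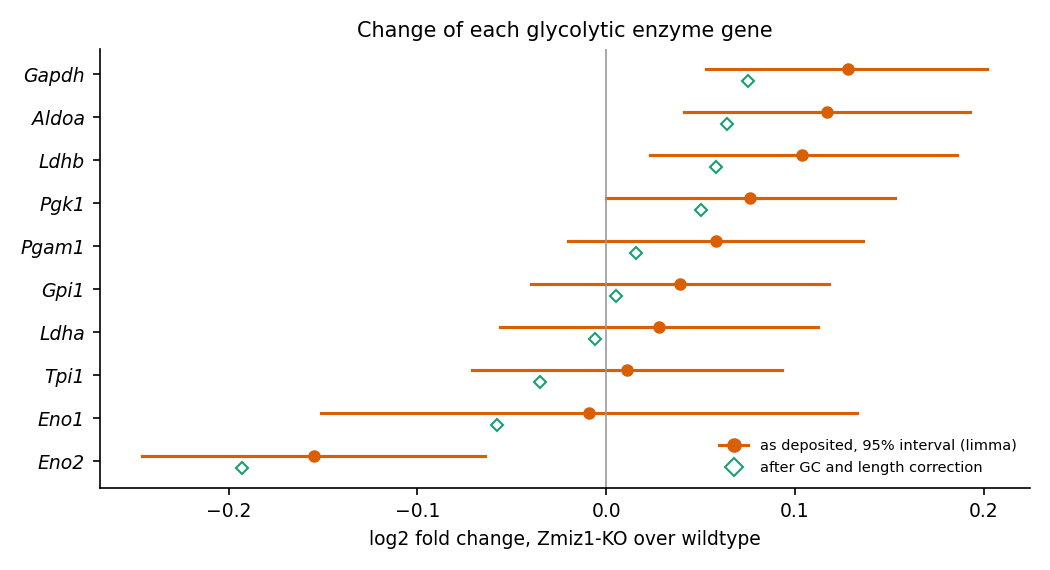
Log2 fold change of each gene in Zmiz1-KO over wildtype libraries (horizontal axis), with the 95% interval from limma as an orange line and the value after correction for GC content and transcript length as a green diamond. Gapdh at 0.128 and Eno2 at -0.155 lie farthest from 0, and every diamond lies to the left of its orange point.

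A correction for base composition and length lowered all of these values. Over 15620 genes with an annotated transcript, the log2 fold changes were corrected for their trend with GC content and transcript length. Gapdh went from 0.128 to 0.075 (adjusted p = 0.598), Aldoa from 0.117 to 0.064, Ldhb from 0.104 to 0.058 and Pgk1 from 0.076 to 0.050. Ldha and Tpi1 moved to -0.006 and -0.035, and the median of the 10 genes was 0.011, with 6 of 10 positive. Eno2, at 54.8% GC and 2795 bases, went from -0.155 to -0.193 (adjusted p = 0.119). None of the 10 passed the test after this correction, where 33 of the 15620 genes passed. An unadjusted p under 0.05 (limma) was left for 1 of 10, Eno2. The share of all genes at that level is not given for the corrected values, so this count is not read further.

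Gapdh was compared with 16 other genes used as qPCR references, Pgk1 among them. Hprt (purine salvage) and Ppia (a peptidyl-prolyl isomerase) varied least, with SDs of log2 values over the 6 libraries of 0.029 and 0.031, followed by Ywhaz at 0.043, Tbp at 0.044, Pgk1 at 0.045, and Eef1a1 and Actb at 0.047. Gapdh, at 0.078, was the 11th of 17, next after Rplp0 at 0.069, and B2m was the most variable at 0.318. Within groups the SD of Gapdh was 0.040, so much of its spread lay between the groups. Of the 1541 genes with a mean of at least 5000, 83.6% had a smaller SD over the 6 libraries than Gapdh. None of the 15 references outside the 10 glycolytic genes passed the test (limma, and none by limma-voom). Of these 15, 1 had an unadjusted p under 0.05 (limma), against 11.0% of all genes. In absolute log2 fold change Gapdh was the 15th of 17, with Tfrc (-0.143) and Gusb (0.151) beyond it.

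**Figure D4:**
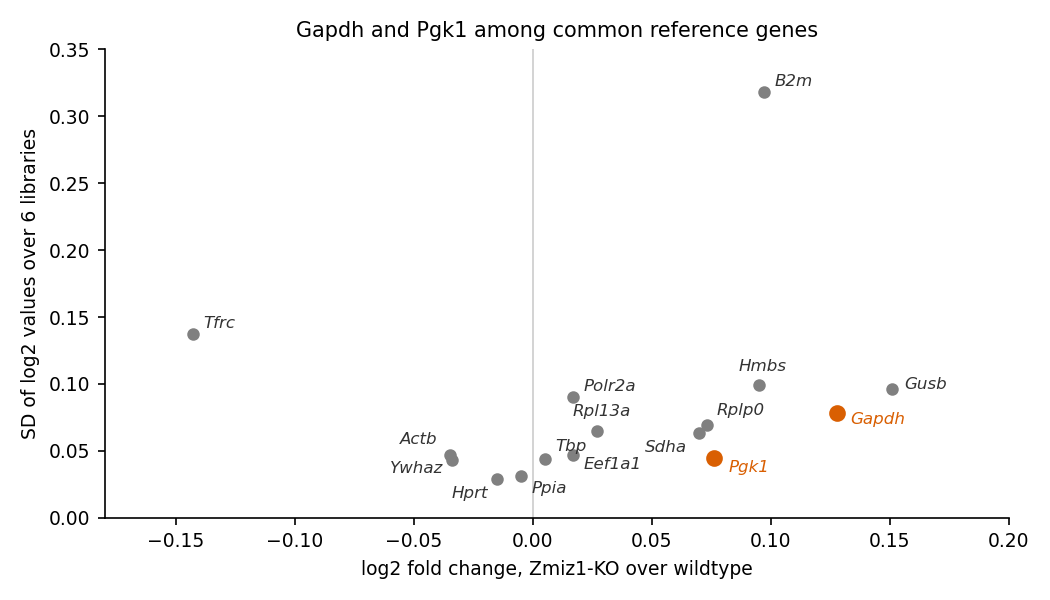
Common qPCR reference genes, with the log2 fold change in Zmiz1-KO over wildtype on the horizontal axis and the SD of log2 values over the 6 libraries on the vertical axis. Gapdh (0.128, SD 0.078) and Pgk1 (0.076, SD 0.045) are orange and the other genes plotted grey; Hprt, Ppia and Tbp lie nearest to the origin.

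Within a library, a ratio of genes does not depend on how the library was scaled. The log2 level of Gapdh over the mean log2 level of the 15 other references was 2.079, 2.173 and 2.125 in wildtype and 2.280, 2.153 and 2.239 under the Zmiz1-KO label. Zmiz1-KO replicate 2 lay inside the wildtype range, and the difference of 0.098 had an exact permutation p of 0.2 (0.3 adjusted over 3 ratios). The 15 references include B2m, the most variable of them. It was at 1290 normalized counts in Zmiz1-KO replicate 2, 1069 in wildtype replicate 1 and 766 to 793 in the other libraries. The part of B2m in this overlap was not tested. Against Tpi1, one of the steadiest members, Gapdh was higher in 3 of 3 KO-labelled libraries (log2 difference 0.117, exact permutation p = 0.1). Divided by Gapdh, the log2 difference of Zmiz1 was 0.195 in place of 0.323, and that of Tnc, an extracellular matrix gene called lower in the table, was -0.771 in place of -0.644. The sources used here do not state which reference gene the study's own qPCR used.

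The tested genes outside the 10 whose log2 values, centred on their mean, lay closest to those of Gapdh over the 6 libraries were Ap3s2, Bcl7b, Stk11ip, Zfp623 and Stim1. Their root-mean-square differences from Gapdh were 0.0146 to 0.0177 on the log2 scale. Ap3s2, a subunit of an adaptor complex for vesicle transport, had 3943, 4053 and 3924 normalized counts in wildtype and 4406, 4066 and 4352 under the Zmiz1-KO label, a likeness to Gapdh that follows from how it was chosen. Among the members Aldoa was closest to Gapdh (0.0301), with 52 genes outside the list closer still, and Eno2 was farthest (0.1570).

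Per kilobase of transcript, the mean over 6 libraries ran from 19275 normalized counts for Gapdh to 3845 for Eno2, a 5.01-fold range. The order was Gapdh, Aldoa (12001), Ldha (7802), Pgam1 (7329), Eno1 (7113), Tpi1 (5796), Pgk1 (4753), Gpi1 (4743), Ldhb (4357) and Eno2. Over the 6 libraries Gapdh stayed above Aldoa, Aldoa above Ldha, Eno1 above Tpi1 and Tpi1 above Pgk1. Ldha, Pgam1 and Eno1 overlapped as neighbours, as did Pgk1, Gpi1, Ldhb and Eno2. On the same scale Pkm, which makes pyruvate, was at 9098, between Aldoa and Ldha. The hexokinase Hk1, which starts the pathway in brain, was at 3701, against 23.6 for Hk2. The phosphofructokinases, which catalyse its committed step, were at 2847 (Pfkm), 2357 (Pfkp) and 1020 (Pfkl), all lower than the 10 genes.

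**Figure D5:**
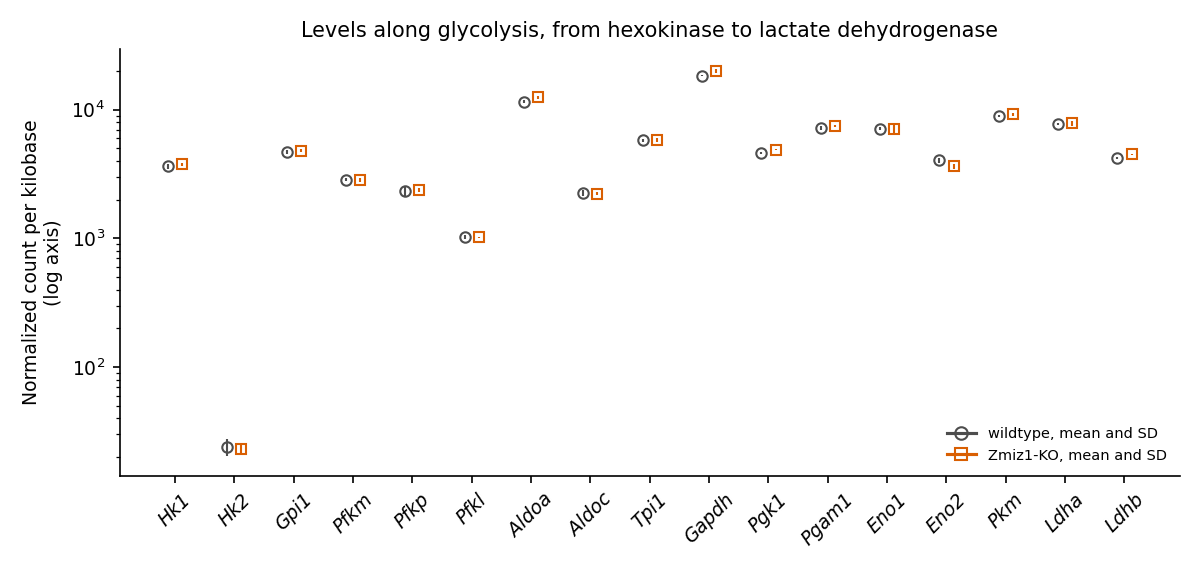
Normalized count per kilobase of transcript (vertical log axis) for genes along glycolysis, from hexokinase on the left to lactate dehydrogenase on the right, as group means with SD (n = 3) for wildtype (grey circles) and Zmiz1-KO (orange squares). Gapdh is the highest at 18419 in wildtype and 20130 in Zmiz1-KO, Hk2 is far below the others, and the groups lie close together at each step.

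The genes around the 10 in metabolism did not pass the test either. Over 8 lists with 108 tested genes, none passed (limma, and none by limma-voom), and 10 had an unadjusted p under 0.05, 9.26% against 11.0% of all genes. The 18 tested genes for other steps and isozymes of glycolysis had a median log2 fold change of 0.028, and Pklr had the smallest p-value among them (adjusted p = 0.696). Of 19 regulators of glycolytic flux, 13 had negative log2 fold changes (median -0.064). Prkaa1, a catalytic subunit of the energy sensor AMPK, had 940, 973 and 889 normalized counts in wildtype and 819, 831 and 815 under the Zmiz1-KO label (log2 fold change -0.184, adjusted p = 0.285). Pfkfb3, which makes an activator of phosphofructokinase, was at -0.162 (adjusted p = 0.293). For 4 of the 19 regulators, both genes among them, all KO-labelled libraries were below wildtype, and for 0 of 19 above. Over all genes the shares were 8.16% and 8.10%. The others below were Hif1a (log2 fold change -0.094, adjusted p = 0.432, limma) and Myc (-0.128, adjusted p = 0.486), named after their values were seen.

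Glucose and lactate transport (13 genes) had a median log2 fold change of 0.011. The glucose transporter Slc2a12 and the monocarboxylate transporter Slc16a1 were at 0.426 (adjusted p = 0.257) and 0.097 (adjusted p = 0.441), each with all KO-labelled libraries above wildtype, as for 8.10% of all genes. These were the 2 of 13 genes with that pattern, and 1 of 13, Slc16a3 (log2 fold change -0.338, adjusted p = 0.517), named after its values were seen, had all KO-labelled libraries below wildtype, as for 8.16% of all genes. Genes for pyruvate entry into mitochondria (14, median 0.010) included Pdp2, an activating phosphatase of pyruvate dehydrogenase, at -0.285 (adjusted p = 0.311), and Dlat, a subunit of that complex, at 0.073 (adjusted p = 0.589). The pentose phosphate pathway (8 genes, median -0.001), with Rpia and H6pd first by p-value, and glycogen metabolism (11, median -0.005), with Pgm2l1 and Pygm, were close to the median of all genes. The NADH shuttles (10, median 0.051), led by the aspartate aminotransferases Got2 (0.082, adjusted p = 0.466) and Got1 (0.101, adjusted p = 0.484), had a median near that of the 10 enzymes. Genes known to be induced by hypoxia outside glycolysis (15 genes) had a median of 0.003, and Mxi1 and Higd1a had the smallest p-values among them (0.152 and 0.123, adjusted p = 0.324 and 0.424). Without wildtype replicate 1, Got1 was at 0.041 and Higd1a at 0.069.

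Markers of other cell types are given beside these values, since some moved with the groups. All 7 markers of meningeal fibroblasts had positive log2 fold changes (median 0.316), 1 of them, Col1a2, passed the test, and their summed level was 10978 to 12709 in wildtype and 13829 to 15013 under the Zmiz1-KO label. Of 8 markers of cortical excitatory identity 7 were negative (median -0.121), Emx1 fell (adjusted p = 0.0150, limma), and the sums were 27685 to 32525 and 26434 to 27795. Emx1 is also the gene from which Cre is expressed, in the Zmiz1-KO group alone. The part of the Cre allele in the level of Emx1 was not tested. Of 10 astrocyte markers 7 were negative (median -0.033), Aqp4 fell (log2 fold change -0.294, adjusted p = 0.00499), and the sums overlapped at 78846 to 83113 and 72731 to 80616. In the remaining lists none of 38 markers passed (limma, and none by limma-voom). Of these 38, 8 had an unadjusted p under 0.05 (limma), against 11.0% of all genes. So did 5 of 7 markers of meningeal fibroblasts, 4 of 8 of cortical excitatory identity and 3 of 10 of astrocytes. Medians of the remaining lists were -0.135 for the oligodendrocyte lineage, -0.044 for microglia, -0.090 for endothelial cells and pericytes, -0.060 for erythroid cells and -0.398 for choroid plexus. The choroid plexus sums ran from 410 to 8582 in wildtype and from 459 to 5012 under the Zmiz1-KO label. The calls of Col1a2, Emx1 and Aqp4 were each lost when certain single libraries were left out. No marker was at 0 in all libraries, and the part of cell content in the values of the 10 genes was not tested.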

How the data were processed

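RNA-seq libraries of P7 cortex, 3 wildtype and 3 labelled Zmiz1-KO, were prepared with a TruSeq kit. The authors aligned reads to mm10 with STAR in Illumina BaseSpace and normalized gene counts with DESeq2, and they deposited 1 normalized signal value per gene and library, with no raw counts. Whole reads were not recovered from these values, so a test for such values was used in place of a count test.

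Tests covered the 15800 of 24972 genes that reached 10 in 3 or more of the 6 libraries, compared on log2(value + 1), without further scaling or covariates, with limma (version 3.58.1, R version 4.3.3; trend and robust options). Two-sided p-values were adjusted over all these genes (Benjamini-Hochberg), with a threshold of 0.05. Fold changes and their errors are on the log2(value + 1) scale, and means and SD are of normalized counts. Ratios within a library were compared by exact two-sided permutation tests, which cannot give a p below 0.1 for 3 against 3. The depth, estimated at 15494888 reads or more per library, and the 3 libraries per group set the precision.

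The 10 members and the gene lists were chosen with earlier results of these data known. Named genes were the 10 members, Zmiz1, list genes past the threshold, the 2 genes of each metabolic list with the smallest adjusted p, the reference genes and copies in the table, and the 5 genes nearest to Gapdh by root-mean-square difference. Elavl4, Rbfox3, Aldoc, Pkm, Hk1, Hk2, the phosphofructokinases, Gm12070, Slc16a3, Hif1a, Myc, Xist and Tnc were added after their values were seen. So were the ratios to Aldoc, Tpi1 and Gapdh. Positions, transcript lengths, GC content and shared 75-base stretches came from GENCODE M21 (GRCm38), and promoters from RefSeq, matched by symbol for all 10 members. A few genes under this rule enter the counts but are left unnamed and unplotted here. Of the reference genes, Rn18s has no row in the table analysed. Alternatives were pseudocounts of 0.1 and 10, other filters and scalings (trimmed means, median ratios, upper quartiles), limma-voom, no robust estimation, the replicate number as a block, an Xist covariate, GC and length correction, and each library left out in turn. Python version 3.11.15 and matplotlib version 3.10.9 drew the figures.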

Additional observations from a re-analysis of the deposited data

How the results depend on the processing

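The direction and the side of the threshold held in 603 of 612 values of 51 named genes under alternatives other than leaving out a library, and in 281 of 306 values with 1 library left out. Part of this was set beforehand. The deposited values were already normalized, so the factors were 1.002 in every library for median ratios and 0.9987 to 1.002 for trimmed means. These scalings could hardly change a value, and genes far from the threshold could hardly change sides. The number of genes called across the table was 65, and it was 17 without robust estimation, 33 after GC and length correction, and 12 to 152 with 1 library left out (12 without Zmiz1-KO replicate 3, 17 without Zmiz1-KO replicate 1, 30 without wildtype replicate 1, 152 without Zmiz1-KO replicate 2). Of the 10 glycolytic genes 0 to 1 were called with a library left out, Gapdh without Zmiz1-KO replicate 2, and their median log2 fold change was 0.041 to 0.066 there and 0.011 after GC and length correction. Gapdh was at 0.105 to 0.157 with a library left out. With the replicate number as a block, 168 genes were called, 2 of them members, Gapdh at 0.128 (adjusted p = 0.0474, limma) and Eno2 at -0.155 (adjusted p = 0.0482). The labels do not say that the numbers pair animals. Deviations of same-numbered libraries from their group means had correlations of -0.005, -0.113 and -0.006, against -0.096 to 0.106 for libraries of different numbers. With 3 libraries per group these correlations cannot show if the libraries were paired. The adjusted p of Gapdh was 0.0474 to 0.598 over the alternatives other than leaving out a library.

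Some values changed sign. Under upper-quartile scaling Eno1 was at 0.001 and Ppia at 0.006, and after GC and length correction Tpi1 was at -0.035, Ldha at -0.006, Hprt at 0.002 and Rpl13a at -0.021. Emx1 had an adjusted p of 0.0755 without robust estimation, and of 0.0871, 0.0628 and 0.0713 without wildtype replicate 1, wildtype replicate 3 and Zmiz1-KO replicate 1. Aqp4 was at 0.0511 and 0.0818 without Zmiz1-KO replicates 1 and 3, and Col1a2 at 0.0688 without Zmiz1-KO replicate 3. With a library left out the ranges were -0.091 to 0.043 for Eno1, -0.55 to 0.286 for Eno1b, -0.01 to 0.037 for Tpi1, 0 to 0.065 for Ldha, -0.031 to 0.003 for Hprt, -0.029 to 0.01 for Ppia, -0.03 to 0.028 for Tbp, -0.036 to 0.097 for Polr2a, -0.011 to 0.056 for Eef1a1 and -0.144 to 0.251 for B2m. The ratios of Gapdh to the other references (0.07 to 0.134), Ldha to Ldhb (-0.107 to -0.031) and Eno1 to Eno2 (0.082 to 0.195) kept their signs. The cause of these changes was not tested. With 3 libraries per group, the 95% interval of Gapdh ran from 3.72% to 15.06% and that of Eno2 from -15.65% to -4.36%.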

Other observations

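Isozymes known from the testis or other organs had values at or near 0 in these cortices. Pgk2, the testis form of phosphoglycerate kinase, was listed at 0 in all 6 libraries. Gapdhs, the sperm form of Gapdh, was listed at 0, 6.26 and 2.08 normalized counts in wildtype and at 0 in all 3 libraries under the Zmiz1-KO label. Ldhc, the sperm lactate dehydrogenase subunit, was listed at 0 in wildtype and at 1.99, 0 and 6.04 under the Zmiz1-KO label. These values are worth at most a few reads and were below the filter, so they were not tested. The muscle forms were higher. Eno3 had 183, 214 and 207 normalized counts in wildtype and 225, 198 and 239 under the Zmiz1-KO label (adjusted p = 0.769, limma), and Pgam2 had 64.9 to 99 and 64.6 to 92.9, with overlapping groups in both.

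Among copies of the members, Aldoart1 had 4.03, 14.7 and 6.16 normalized counts in wildtype and 1.98, 3.67 and 0 under the Zmiz1-KO label. Aldoart2 ran from 0 to 8.1 and Ldhal6b from 3.65 to 16.9 over the 6 libraries. None of them passed the filter, and Eno1b was the only copy on the list with a level comparable to a member.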
